A study of Mus musculus with 13 samples.

Results

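Connexins are the proteins of gap junctions, the channels that pass ions and small molecules directly from cell to cell. The 4 connexin genes Gja1 (connexin Cx43), Gja5 (Cx40), Gjc1 (Cx45) and Gja4 (Cx37) were followed in single cells of the developing mouse heart. They were taken by symbol from the 27998 genes of each matrix. Single-cell RNA sequencing gives each cell a barcode and each captured transcript a unique molecular identifier (UMI), so that a count of UMIs is a count of transcripts. Levels are UMIs of a gene per 1000000 UMIs (CPM), each summed over all cells of a class in a library.

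The mice were Wild-type C57Bl/6J at 6 stages, with no treatment, transgene or mutant allele. E8.5 and E10.5 libraries came from embryos without head and limbs, and all later libraries, from E12.5 to P3, came from hearts. How many animals went into a library is not given in the sources used here. P-values thus measure the spread between the 2 libraries of a stage, shared over the stages and groups of cells in a fit. The 10 matrices comprised 1 from E8.5, 2 from each of E10.5, E12.5, E14.5 and E16.5, and 1 of P3, in which both P3 samples are pooled with no map from barcodes to their labels, so that it was counted as 1 sample. E8.5 and P3 therefore entered no test. Barcodes with at least 2000 UMIs were used, 80741 in all.

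Cells were sorted into classes by genes other than connexins. Cardiomyocytes had at least 1500 CPM of Tnnt2, the thin-filament troponin T. Endothelium had at least 2 UMIs and 100 CPM of the junction protein Cdh5. Mesenchyme had at least 2 UMIs and 500 CPM of collagen Col1a1. Barcodes that met more than 1 of these gates, 17 to 65 in a heart library of E12.5 to E16.5 and 155 at P3, were left out. Cardiomyocytes were called atrial-like when the atrial light chain Myl7 was at or over 1500 CPM and over 4 times Myl2. They were called ventricular-like when the ventricular light chain Myl2 was at or over 1500 CPM and not below Myl7, and the rest were mixed. Heart libraries of E12.5 to E16.5 held 2117 to 3411 ventricular-like, 230 to 466 atrial-like, 335 to 875 endothelial and 255 to 624 mesenchymal cells.

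In the adult heart Gja1 is the main connexin of working myocardium, and Gja5 is found in the atria, in the fast-conducting His-Purkinje system and in arterial endothelium. Gjc1 is the connexin of the early heart tube and the nodes and is also found in vascular smooth muscle. Gja4 is a connexin of endothelium, above all of arteries. Which connexins a cell makes, and how many, is known to set how fast an impulse passes through it.

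The genes lie apart in the mouse genome (GRCm38, GENCODE annotation). Gja1 spans chr10:56377330-56402513 on the plus strand, Gja5 chr3:96904693-97077416 on the plus strand, Gjc1 chr11:102799579-102819700 on the minus strand and Gja4 chr4:127311421-127314039 on the minus strand. The coding sequence sat in 1 exon in all coding transcripts of Gja1, Gjc1 and Gja4 and in 2 of 3 of Gja5. Gja5 is the only member that other annotated genes overlap, all 4 of them on the opposite strand. The 250 bases before each start site were read from RefSeq (GRCm38.p6) for the 3 members that matched, because the levels of these genes differed between classes. Gjc1 was not matched. The first stretch is chr10:56377050-56377299, plus strand, with the AP-1 motif TGAGTCA in capitals. The second is chr3:97032152-97032401, plus strand, and the third chr4:127314040-127314289, minus strand, both with the GC box GGGCGG in capitals.
Gja1: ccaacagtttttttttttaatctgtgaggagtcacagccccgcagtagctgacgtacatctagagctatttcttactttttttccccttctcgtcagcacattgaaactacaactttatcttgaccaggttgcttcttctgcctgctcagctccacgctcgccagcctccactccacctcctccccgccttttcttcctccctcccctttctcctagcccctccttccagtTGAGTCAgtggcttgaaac
Gja5: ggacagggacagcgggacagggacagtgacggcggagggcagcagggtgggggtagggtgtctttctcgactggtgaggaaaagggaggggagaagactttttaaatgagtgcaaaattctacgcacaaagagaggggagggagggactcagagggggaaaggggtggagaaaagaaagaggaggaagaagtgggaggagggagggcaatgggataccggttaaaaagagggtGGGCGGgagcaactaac
Gja4: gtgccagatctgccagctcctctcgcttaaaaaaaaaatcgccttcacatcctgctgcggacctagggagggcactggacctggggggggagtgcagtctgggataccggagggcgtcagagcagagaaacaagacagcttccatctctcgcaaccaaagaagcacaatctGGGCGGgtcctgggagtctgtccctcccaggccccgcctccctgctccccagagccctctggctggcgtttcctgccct
Both strands were searched. TGAGTCA starts 19 bases before the start site of Gja1 and occurs in 4.46% of the 32851 mouse promoters of the same length. GGGCGG starts 17 bases before that of Gja5 and 79 before that of Gja4 and occurs in 32.7% of promoters. The T-box letters GGTGTGA (3.33% of promoters), the Nkx2-5 letters CAAGTG (11.6%) and the RBPJ letters TGGGAA (21.6%) were not in the 3 windows. A match in this window is a description and not a bound site.

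The libraries held 67141166 to 259041468 UMIs, and the median barcode over the minimum held 10268 to 24516. Listed marker genes were summed in the classes of the hearts. The cardiomyocyte list includes Tnnt2 and the endothelial list Cdh5, so the gates fix a part of these sums. The 6 listed cardiomyocyte genes together held at least 21417 CPM in atrial-like and ventricular-like sums and at most 1075 in endothelium and mesenchyme, and the 8 listed endothelial genes held 1811 to 4195 CPM in endothelium and at most 57 in the other 3 classes. The atrial gene Sln was absent or nearly so from atrial-like cells before E12.5 (0.879 CPM in the E8.5 library, 0 and 1.23 in those of E10.5) and reached 4445 and 4319 CPM at E16.5. Early cells of this class are therefore described only as high in Myl7 and low in Myl2. Globin UMIs were found in every class (859 to 14224 CPM for 9 erythroid genes over the 4 classes of the hearts). In barcodes of at least 50% globin, the reference for RNA from outside the cell, the 4 connexins stood at 0 to 2.87 CPM from E12.5 on. Pairs of libraries shared 27 to 264 barcodes, where their sizes give 37.81 and 284.4 by chance for the pairs with the fewest and the most.

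**Figure D1:**
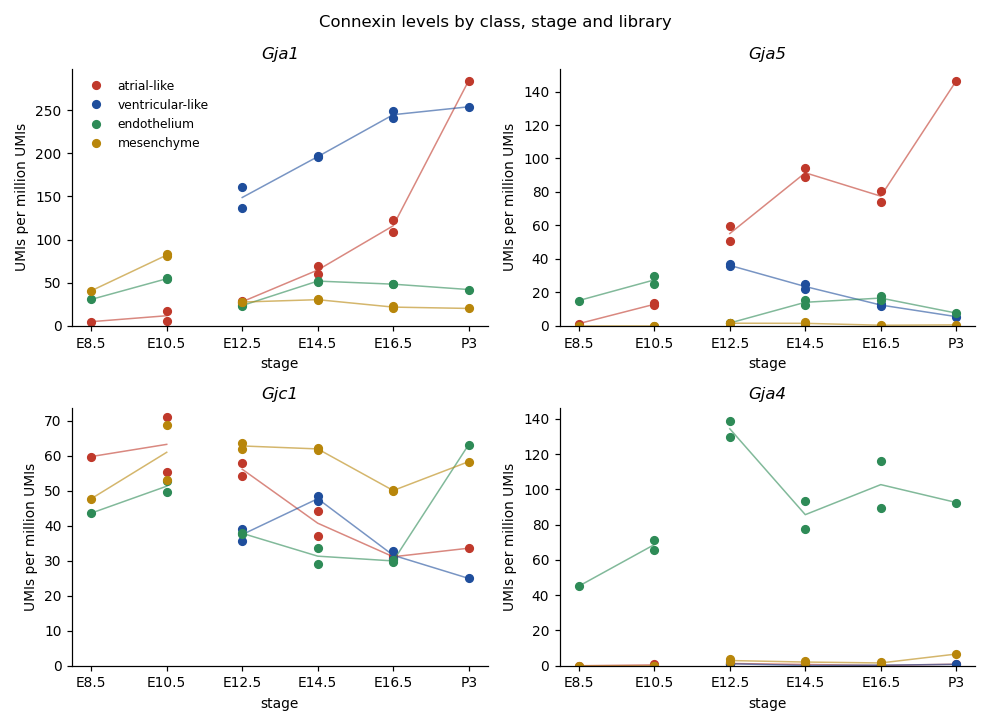
Connexin levels (CPM, vertical axis) by stage for atrial-like and ventricular-like cardiomyocytes, endothelium and mesenchyme. Each point is 1 library and lines join stage means, with embryos (E8.5, E10.5) not joined to hearts. Sums of at least 10 cells are shown. Gja1 is highest in ventricular-like cells from E12.5 to E16.5, Gja5 in atrial-like cells from E12.5 on, and Gja4 in endothelium at every stage.

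Ventricular-like cells, endothelium and mesenchyme each had another leading connexin, Gja1, Gja4 and Gjc1. Over E12.5, E14.5 and E16.5, Gja1 stood at 137 to 249 CPM in ventricular-like cells, 23.4 to 52.4 in endothelium and 20.6 to 30.6 in mesenchyme. Gja4 stood at 77.8 to 139 CPM in endothelium and at no more than 3.59 in mesenchyme and 1.19 in ventricular-like cells. Gjc1 stood at 29 to 63.5 CPM in these 3 classes, with mesenchyme highest in all 6 libraries.

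All 12 tests among these 3 classes, 4 connexins in 3 comparisons, passed the threshold of an adjusted p of 0.05 (edgeR quasi-likelihood test, Benjamini-Hochberg adjustment over all genes). Between such distant classes most genes passed, 82.4% of 13646 for endothelium against ventricular-like cells, 81.4% for mesenchyme against ventricular-like cells and 67.2% for endothelium against mesenchyme. Relative to ventricular-like cells, endothelium had a log2 fold change of -2.50 ± 0.05 (SE, adjusted p = 9.23e-24) for Gja1, and mesenchyme differed by -3.18 ± 0.05 (SE, adjusted p = 1.45e-24). The tests of Gja4 with ventricular-like cells, at 0.08 to 1.19 CPM, and of Gja5 with mesenchyme, at 0.106 to 2.11 CPM, rest on levels at or near those of the globin-rich barcodes, which held up to 1.08 CPM of Gja4 and 0.819 of Gja5 from E12.5 on, so no size is given for them. For endothelium against mesenchyme, Gja1 had 0.68 ± 0.06 (SE, adjusted p = 2.89e-10) and Gjc1 -0.70 ± 0.05 (SE, adjusted p = 2.48e-11). Against ventricular-like cells Gjc1 was the member with the smallest differences. They were -0.42 ± 0.05 (SE, adjusted p = 2.07e-08) in endothelium and 0.29 ± 0.04 (SE, adjusted p = 3.23e-06) in mesenchyme. With stricter gates the mesenchymal excess of Gjc1 was 0.05 (adjusted p = 0.656) and no longer passed, and with scaling by library totals it was 0.60 (adjusted p = 5.79e-11). The endothelial difference was -0.25 and -0.22 under these settings and still passed. All 7 tested of 8 listed mural genes differed between mesenchyme and ventricular-like cells, 5 higher and 2 lower in mesenchyme, with a median of 2.80 against 0.0002 over all genes. The 6 marker genes of mural cells, the pericytes and smooth muscle around vessels, summed to 426 to 1088 CPM in mesenchyme and 584 to 1503 in ventricular-like cells of the hearts, and none of the 6 was at 0. The part of mural RNA in the Gjc1 of mesenchyme was not tested.

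In ventricular-like cells Gja1 rose and Gja5 fell from stage to stage. Gja1 stood at 137 and 161 CPM in the 2 libraries of E12.5, then 197 and 195 at E14.5, then 240.4 and 249 at E16.5. No library of a stage overlapped with one of the stage before. Gja5 stood at 35.5 and 36.8, then 25 and 22, then 11.9 and 12.9 CPM, again without overlap. Gjc1 stood at 35.8 and 39.2, then 47 and 48.4, then 30.5 and 32.7 CPM, with its highest values at E14.5.

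All 6 stage tests of the 3 genes in ventricular-like cells passed. Among all 12296 genes tested, 40.4% passed between E12.5 and E14.5 and 43.9% between E14.5 and E16.5. Gja1 rose by 0.36 ± 0.09 (SE, adjusted p = 0.00214) and then by 0.50 ± 0.09 (SE, adjusted p = 5.09e-05) on the log2 scale. Gja5 fell by 0.66 ± 0.08 (SE, adjusted p = 5.64e-07) and by 0.74 ± 0.08 (SE, adjusted p = 1.52e-07). With the mitochondrial ceilings of the study the falls of Gja5 were smaller, -0.37 and -0.32, and still passed. Gjc1 rose by 0.31 ± 0.07 (SE, adjusted p = 0.00129) before it fell by 0.42 ± 0.07 (SE, adjusted p = 3.87e-05). Mitochondrial transcripts took a growing share of these cells, a median of 5.12 and 5.43% of UMIs at E12.5 and 10.504 and 11% at E16.5, and they are counted in the CPM. Without them Gja1 stood at 145 and 172, then 215 and 213, then 272 and 282 CPM at the 3 stages, which keeps the order. Fold changes are relative to the typical gene of each comparison. Scaled by library totals instead, the median of all genes moved by -0.18 from E14.5 to E16.5, and Gja1 rose by 0.32 (adjusted p = 0.00343) in place of 0.50. Gja4 was close to absent, at 0.08 to 1.19 CPM, and was left out of these tests by the filter on low counts.

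A part of the ventricular-like barcodes held little of any connexin. Those with under 1% mitochondrial UMIs numbered 772 and 1000 of 2117 and 2777 at E12.5, then 476 and 355 of 2900 and 2460 at E14.5, then 233 and 161 of 3411 and 3214 at E16.5, and had a median of 4090 to 5487 UMIs. Their Gja1 level was 7.09 and 6.31, then 13 and 17.2, then 12.9 and 11.2 CPM. Gja5 stood at 1.24 to 3.76 and Gjc1 at 3.21 to 11.1 CPM in them. In the other ventricular-like cells Gja1 was 158 and 186, then 209 and 206, then 245 and 253 CPM. The barcodes under 1% were kept in the class, and leaving them out changed no call of a member between the stages of ventricular-like cells. The split was made after the values had been seen.

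In atrial-like cells Gja5 and Gja1 both rose from E12.5 to E14.5, and Gja1 rose again to E16.5. Gja5 stood at 59.9 and 50.4 CPM at E12.5, then 94.2 and 88.7 at E14.5, then 74.1 and 80.8 at E16.5. Gja1 stood at 29.2 and 26.7, then 59.7 and 69.6, then 123 and 109 CPM, each stage above the one before without overlap. Gjc1 stood at 54.3 and 58, then 37.1 and 44.3, then 31.4 and 30.8 CPM, each stage below the one before without overlap.

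From E12.5 to E14.5 the 3 genes all passed in atrial-like cells, where 10.4% of genes passed. The log2 fold change was 1.22 ± 0.13 (SE, adjusted p = 1.04e-06) for Gja1, 0.76 ± 0.10 (SE, adjusted p = 1.73e-05) for Gja5 and -0.47 ± 0.11 (SE, adjusted p = 0.0064) for Gjc1. The call for Gjc1 was lost without E14.5 replicate 1 (-0.32, adjusted p = 0.353) and with stricter gates (-0.36, adjusted p = 0.111). With the mitochondrial ceilings of the study Gja5 was 1.22 and Gjc1 -0.77, and both passed. From E14.5 to E16.5, where 12.3% of genes passed, Gja1 rose by 1.01 ± 0.12 (SE, adjusted p = 1.51e-06). Gja5 and Gjc1 did not pass, at -0.11 ± 0.10 (SE, adjusted p = 0.564) and -0.21 ± 0.12 (SE, adjusted p = 0.305).

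In the Myl7-high, Myl2-low cells of the earlier embryos, Gjc1 was the leading connexin. It stood at 59.7 CPM in 101 cells of E8.5, then 71.2 and 55.3 in 75 and 63 cells of E10.5. Gja1 stood at 4.83 CPM at E8.5, then 17.3 and 6.14 at E10.5, on 11, 18 and 5 UMIs. Gja5 stood at 1.32 and then 13.5 and 12.3 CPM, on 3, 14 and 10 UMIs. Only 1 ventricular-like cell was found at E8.5, and the E10.5 libraries held 9 and 5, too few for a comparison of chambers. Embryos and hearts are different material, so no test was made across this step.

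The chambers differed in Gja1 and Gja5 in opposite directions, and at E14.5 and E16.5 these genes differed most. At E12.5 Gja5 differed about as much as Gjc1, which is described next. At E12.5, Gja1 was lower in atrial-like cells by 2.56 ± 0.11 (SE, adjusted p = 4.28e-15) on the log2 scale, 5.9-fold. The difference was -1.70 ± 0.11 (SE, adjusted p = 9.79e-12) at E14.5 and -1.19 ± 0.10 (SE, adjusted p = 4.23e-10) at E16.5, which is 2.28-fold lower. Gja5 was higher in atrial-like cells at the 3 stages, by 0.46 ± 0.09 (SE, adjusted p = 0.000205), 1.88 ± 0.10 (SE, adjusted p = 1.24e-13) and 2.52 ± 0.10 (SE, adjusted p = 1.97e-16), from 1.38-fold at E12.5 to 5.73-fold at E16.5. Without E12.5 replicate 1 the difference in Gja5 at E12.5 was 0.29 (adjusted p = 0.0475). For both genes the 2 chambers did not overlap at any of these stages. Of all 12296 genes tested, 38.3%, 32.3% and 35.8% passed between the chambers at E12.5, E14.5 and E16.5.

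Gjc1 was higher in atrial-like cells at E12.5, by 0.44 ± 0.08 (SE, adjusted p = 0.000142), and lower at E14.5, by 0.34 ± 0.10 (SE, adjusted p = 0.0118). At E16.5 it did not pass, at -0.14 ± 0.10 (SE, adjusted p = 0.312), with an interval of 2 SE either side from -0.33 to 0.06. The call at E14.5 was lost without E14.5 replicate 1, at -0.21 (adjusted p = 0.457), and with scaling by library totals, at -0.26 (adjusted p = 0.0704).

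The chamber difference itself was compared between E16.5 and E12.5 with an interaction term. It moved by 1.37 ± 0.15 (SE, adjusted p = 3.81e-07) for Gja1, by 2.06 ± 0.13 (SE, adjusted p = 2.29e-11) for Gja5 and by -0.58 ± 0.13 (SE, adjusted p = 0.00253) for Gjc1. Of all genes, 16.1% passed this test. On the log2 scale the gap in Gja1 thus narrowed while the gap in Gja5 widened. For Gja1 the atrial-like level rose by a larger factor, from 29.2 and 26.7 to 123 and 109 CPM. The ventricular-like level went from 137 and 161 to 240.4 and 249 CPM, so in CPM the chambers did not come closer. For Gja5 the atrial-like level rose to E14.5 while the ventricular-like level went down. The call for Gjc1 was lost without E16.5 replicate 2, at -0.49 (adjusted p = 0.0724).

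**Figure D2:**
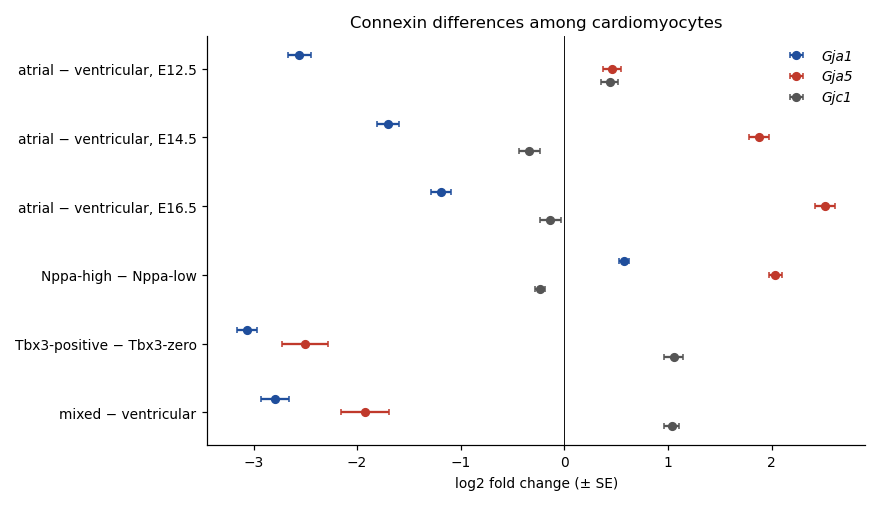
Log2 fold changes (horizontal axis, ± SE) of Gja1, Gja5 and Gjc1 between classes of cardiomyocytes, one comparison a row. Bars are standard errors of the fit over libraries. Gja1 lies to the left of 0 in 5 of 6 rows and Gja5 moves to the right from E12.5 to E16.5 in the rows of the chambers.

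The balance of the 4 connexins followed from these levels. UMIs count captured transcript ends, one a molecule, so no length correction was made, and capture may differ between genes. In ventricular-like cells Gja1 made up 65.3 and 67.6% of the UMIs of the 4 connexins at E12.5 and 84.9 and 84.5% at E16.5. Gja5 made up 17 and 15.5% and then 4.21 and 4.38%. In atrial-like cells no connexin held such a lead. At E12.5 Gja5 and Gjc1 held similar shares, 41.3 and 37.1% against 37.4 and 42.6%, and at E16.5 Gja1 held 53.7 and 49.4%. In the Myl7-high, Myl2-low cells of E8.5 and E10.5, Gjc1 held 90.7% and then 69.2 and 75%. These shares are fixed by the levels above and were not tested.

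**Figure D3:**
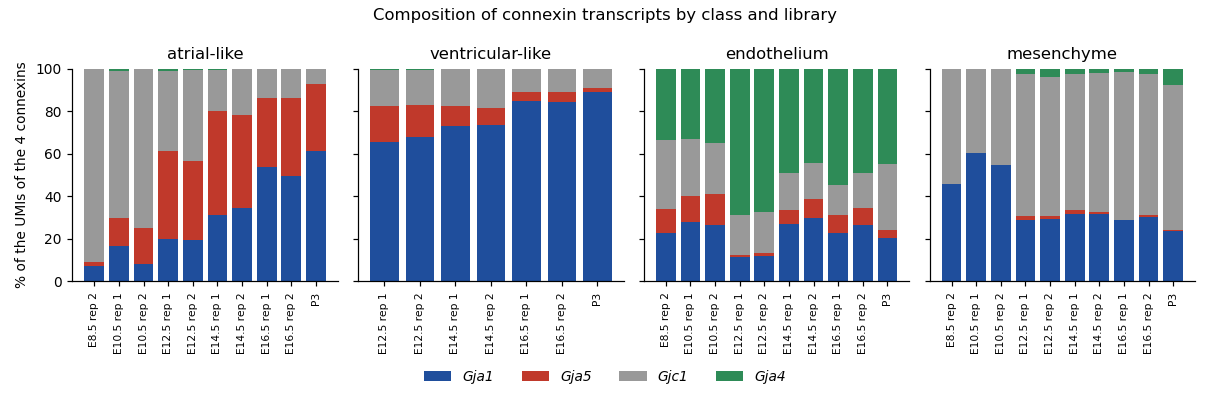
Share of each connexin in the UMIs of the 4 (vertical axis, %) in each library, by class. Bars of at least 10 cells are shown, stacked to 100%. Ventricular-like cells are led by Gja1, endothelium from E12.5 on by Gja4, mesenchyme of the hearts by Gjc1, and atrial-like cells by Gja5 at E14.5 and Gja1 at E16.5. The Myl7-high, Myl2-low cells of the embryos, in the same panel, are led by Gjc1.

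The share of cells with a connexin UMI was taken after every cell had been thinned to 2000 UMIs. Gja1 was seen in 14.7 and 17.9% of ventricular-like cells at E12.5, then 26.1 and 26.3% at E14.5, then 32.7 and 36.2% at E16.5. With all UMIs the shares were 51.1 and 51.4%, then 62.4 and 61%, then 80.2 and 77.4%. The barcodes under 1% mitochondrial described above count in these shares, and they were a larger part of the class at E12.5 than at E16.5. Without them the thinned shares were 23.3 and 27.3%, then 29.1 and 30.5%, then 33.4 and 37.9%, and with all UMIs 77.6 and 77.9%, then 73.3 and 70.02%, then 85.5 and 81.2%. Gja5 was seen in 10.48 and 5.15% of atrial-like cells at E12.5 and 12.1 and 12.9% at E16.5. In globin-rich barcodes, which should lack connexins, the thinned shares were 0 to 0.958% for all 4 genes in the hearts and at most 3.83% with all UMIs. Their median depth was 11680.5 to 30542 UMIs before thinning, from E12.5 to E16.5, against 12302 to 20541 in ventricular-like cells.

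Within ventricular-like cells, Gja5 was higher in cells with more Nppa. Nppa, the natriuretic peptide of atrial and trabecular myocardium, was used to take the third of ventricular-like cells with the most and the third with the least of it in each library. Trabeculae are the inner ridges of the ventricle from which the Purkinje network forms. Gja5 stood at 72 and 77.4 CPM in Nppa-high and 13.9 and 11.5 in Nppa-low cells at E12.5. The values were 48.1 and 41.7 against 13.3 and 11.8 at E14.5 and 23.5 and 23.5 against 6.62 and 7.01 at E16.5. Every Nppa-high sum was above every Nppa-low sum of any of the 3 stages. Over the 3 stages the log2 fold change was 2.03 ± 0.06 (SE, adjusted p = 1.39e-15), 4.1-fold.

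Gja1 was higher in Nppa-high cells too, by 0.57 ± 0.05 (SE, adjusted p = 1.68e-08). Its values were 211 and 241 against 94 and 115 CPM at E12.5 and 245 and 254 against 171 and 161 at E14.5. At E16.5 they were close, 254 and 267 against 239 and 243. Gjc1 was lower in Nppa-high cells by 0.23 ± 0.05 (SE, adjusted p = 0.000969), with 28.6 and 32.1 against 43.1 and 44.4 CPM at E12.5 and overlapping values at E14.5 and E16.5. Whether the differences change with stage was not tested. Gja4 did not pass (0.17, adjusted p = 0.865), on no more than 22 UMIs a sum. Of all 12655 genes, 24.1% passed. Nppa-high cells had a higher median of UMIs in all 6 libraries, 12456 to 21039 against 9900 to 19706 in Nppa-low cells, and their mitochondrial share was 6.04 and 6.52% against 4.28 and 4.47% at E12.5. With a minimum of 4000 UMIs the difference in Gja5 was 2.03, and the part of depth was not tested further.

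Other listed genes differed in the same comparison. The transcription factors Irx3 and Irx5 were higher in Nppa-high cells by 1.15 ± 0.07 (SE, adjusted p = 3.41e-10) and 1.68 ± 0.09 (SE, adjusted p = 2.22e-11), and Tbx5 by 0.76 ± 0.05 (SE, adjusted p = 2.22e-09). Of 14 listed genes of the intercalated disc, the junction that joins cardiomyocytes end to end, 8 rose and 1 fell, with a median log2 fold change of 0.19 against 0.0023 over all genes, of which 24.1% passed. The gene that fell was Cdh2, N-cadherin, at -0.15. The list of 13 factors known to act on cardiac connexins split, with 5 higher and 4 lower. Those lower were Id2, Msx2, Tbx2 and Tbx3.

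Cardiomyocytes with Tbx3 had less Gja1 and Gja5 and more Gjc1. Tbx3 is a repressor of the working myocardial programme in the nodes and the proximal conduction system. Cells with at least 2 Tbx3 UMIs numbered 86 and 126 at E12.5, then 76 and 51 at E14.5, then 26 and 19 at E16.5, and were set against cardiomyocytes with none, of all chambers. Gja1 stood at 12.1 and 19.4 CPM against 125 and 148 at E12.5. It stood at 33.7 and 27.7 against 186 and 187 at E14.5 and at 35.7 and 38.9 against 233 and 238 at E16.5. Every Tbx3-positive sum was below every Tbx3-zero sum. Gja1 was thus lower by 3.06 ± 0.09 (SE, adjusted p = 4.86e-23) on the log2 scale, 8.35-fold.

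Gja5 was lower as well, by 2.50 ± 0.22 (SE, adjusted p = 4.56e-11). Its levels were 5.56 and 10.2 CPM against 39.6 and 39.2 at E12.5, 6.9 and 5.54 against 30.6 and 25.8 at E14.5 and 6.3 and 0 against 16.8 and 19 at E16.5. The Tbx3-positive sums rest on 30 or fewer UMIs each, and that of E16.5 replicate 2 held 0, where 3 UMIs would be 9.74 CPM. Without E16.5 replicate 1 the fitted difference was -5.65 (adjusted p = 5.87e-10), a size that depends on the prior count of the fit. Gjc1 was higher by 1.05 ± 0.09 (SE, adjusted p = 2.02e-11), 2.08-fold. It stood at 106 and 89.4, then 126 and 105, then 84 and 81.1 CPM in Tbx3-positive cells and at 37 and 40.8, then 45.4 and 48.2, then 29.9 and 32 in the others. Every Tbx3-positive sum was above every Tbx3-zero sum. Gja4 did not pass (-1.50, adjusted p = 0.684), on 0 to 2 UMIs a Tbx3-positive sum. Of all 13568 genes, 30.6% passed.

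Hcn4, the pacemaker channel and no part of the gate, stood at 4.05 and 4.09, then 13.8 and 8.31, then 8.4 and 55.2 CPM against at most 0.771 in Tbx3-zero sums. Of the 13 listed factors, which include Tbx3 itself, 9 were higher and 2 lower, with a median of 0.96 against -0.10 over all genes, of which 30.6% passed. Shox2, a factor of the sinus node, was higher by 3.97 ± 0.21 (SE, adjusted p = 1.43e-16), Tbx2 by 3.301 ± 0.34 (SE, adjusted p = 1.71e-09) and Id2 by 2.40 ± 0.07 (SE, adjusted p = 3.29e-23). Of the 14 intercalated disc genes, 3 were higher and 7 lower. The desmosomal cadherin Dsc2 was lower by 0.95 ± 0.23 (SE, adjusted p = 0.00139). Of 8 listed mural genes 4 passed, 1 higher and 3 lower, with a median of -1.14. Their part in the connexin levels was not tested. The Tbx3-positive cells held a larger part of atrial Myl7, 15305 and 11812 against 7469 and 6861 CPM at E12.5. Gja1 and Gja5 were lower, and Gjc1 higher, in each Tbx3-positive sum than in every atrial-like and every ventricular-like sum of its stage. Cells were not matched by chamber, and the part of chamber in these differences was not tested. With a gate of 1 UMI of Tbx3 the differences were smaller, -1.45 for Gja1, -0.42 for Gja5 and 0.70 for Gjc1, and all 3 still passed.

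**Figure D4:**
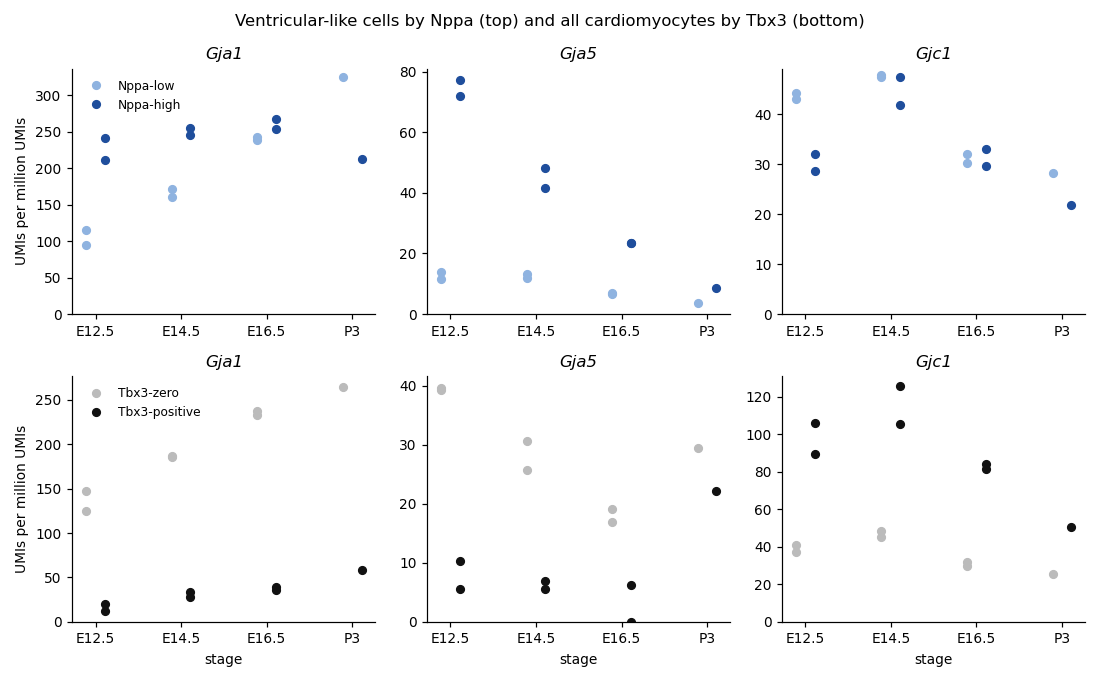
Connexin levels (CPM, vertical axis) by stage in the third of ventricular-like cells with the most and the third with the least Nppa (upper row) and in cardiomyocytes with at least 2 or with 0 Tbx3 UMIs (lower row). Each point is 1 library. Gja5 is higher with Nppa at each stage, while in Tbx3-positive cells Gja1 is lower and Gjc1 higher at each stage.

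At E12.5 and E14.5, cardiomyocytes that fell in neither chamber were high in Gjc1 and low in Gja5. These mixed cells numbered 115 and 166 at E12.5, then 132 and 98 at E14.5. Gjc1 stood at 83.7 and 91.6, then 97.2 and 105 CPM in them, above every atrial-like and ventricular-like sum of those stages. Gja1 stood at 25.2 and 26.7, then 36.9 and 12.3 CPM, and Gja5 at 8.25 and 8.58, then 13 and 0. The last is 0 UMIs in E14.5 replicate 2, where 3 UMIs would be 2.83 CPM and the Poisson interval ends at 3.48. Against ventricular-like cells the log2 fold change was -2.79 ± 0.13 (SE, adjusted p = 4.97e-11) for Gja1, -1.92 ± 0.23 (SE, adjusted p = 4.63e-06) for Gja5 and 1.03 ± 0.07 (SE, adjusted p = 4.99e-09) for Gjc1. Against atrial-like cells it was -0.66 ± 0.16 (SE, adjusted p = 0.00652), -3.09 ± 0.21 (SE, adjusted p = 5.68e-09) and 0.99 ± 0.08 (SE, adjusted p = 4.31e-08). Of 11913 genes, 27.6% passed against ventricular-like and 20.2% against atrial-like cells. At E14.5 the median mitochondrial share was 9.39 and 10.4% in mixed, 7.84 and 7.74% in ventricular-like and 7.28 and 6.88% in atrial-like cells. At E12.5 it was 4.75 and 5.61%, 5.12 and 5.43%, and 6.14 and 6.03% in the same order. Its part in the differences was not tested.

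The contrast of mixed cells was chosen after the levels had been seen. Its Gja1 value against atrial-like cells turned to 0.52 (adjusted p = 0.000916) with stricter gates and to -0.39 (adjusted p = 0.0688) without E14.5 replicate 2, so no direction is given for it. Without E14.5 replicate 1 the value was -1.31, and that of Gja5 was -6.86 against ventricular-like and -8.05 against atrial-like cells, resting on the replicate with 0 UMIs at E14.5. With stricter gates Gja1 and Gja5 differed from ventricular-like cells by -1.55 and -0.95, and both passed. Those gates asked for Myl7 over 10 times Myl2 in atrial-like and Myl2 at least 2 times Myl7 in ventricular-like cells. Cells between the old and new cuts could thus join the mixed class, so these values come from another set of mixed cells. Tbx2 and Tbx3 were higher in mixed than in ventricular-like cells, by 3.04 ± 0.16 (SE, adjusted p = 1.17e-10) and 2.58 ± 0.13 (SE, adjusted p = 6.24e-11). Of the 13 listed factors, 9 differed from ventricular-like cells, 6 higher and 3 lower, where 27.6% of all genes did. Of the listed genes of other cell types, 8 of 9 tested arterial genes differed, 6 of them higher, with a median of 0.79, and 4 of 6 tested mural genes, 3 of them higher. Against atrial-like cells 6 of 6 mural genes differed, 4 of them higher, with a median of 0.68, where 20.2% of all genes did. The 6 mural markers summed to 203 to 1821 CPM in mixed, 193 to 1218 in atrial-like and 584 to 1503 in ventricular-like sums of E12.5 to P3, with up to 3 of them at 0 in a mixed sum. Their part in the connexin levels was not tested. At E16.5, 81 of 94 and 66 of 82 mixed barcodes held over 50% mitochondrial UMIs, so that stage was not compared. The 13 and 16 others held Gjc1 at 69.8 and 104 CPM and Gja1 at 169 and 172. At P3 the 46 mixed cells held Gja5 at 57.5 CPM, between 5.5 in ventricular-like and 146 in atrial-like cells. In the embryos mixed cells held less Gjc1 than the Myl7-high, Myl2-low cells, 43.7 against 59.7 CPM at E8.5 and 29.9 and 47.3 against 71.2 and 55.3 at E10.5. They held more Gja1, 13.7 against 4.83 CPM at E8.5 and 113 and 36.8 against 17.3 and 6.14 at E10.5. The 4 listed skeletal muscle genes summed to 15.03 to 391 CPM in these mixed sums and 15.4 to 23.7 in the others, with up to 3 of the 4 at 0 in either, and their part was not tested.

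In the endothelium of the heart, Gja4 led and Gja5 rose between E12.5 and E14.5. Gja5 stood at 1.51 and 1.88 CPM at E12.5, on 23 and 34 UMIs. It stood at 12.51 and 15.7 at E14.5, then 18 and 15.2 at E16.5. Gja1 stood at 23.6 and 23.4, then 51.3 and 52.4, then 48.6 and 48 CPM. Both E12.5 libraries were below all those of E14.5 and E16.5 for both genes, and the share of all genes that separate so was not counted. Gja4 stood at 139 and 129.8, then 93.6 and 77.8, then 116 and 89.4 CPM and was highest at E12.5. Gjc1 stood at 38 and 37.7, then 33.6 and 29, then 29.7 and 30.2 CPM.

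From E12.5 to E14.5 the 4 members all passed, where 32.4% of 13646 genes passed. Gja5 rose by 2.94 ± 0.22 (SE, adjusted p = 5.77e-10), from a low base, since globin-rich barcodes held up to 0.819 CPM of it. Gja1 rose by 1.07 ± 0.09 (SE, adjusted p = 3.22e-09), 2.09-fold. Gja4 fell by 0.71 ± 0.11 (SE, adjusted p = 2.48e-05) and Gjc1 by 0.34 ± 0.09 (SE, adjusted p = 0.00459). The call for Gjc1 was lost without E14.5 replicate 2 (-0.25, adjusted p = 0.139). From E14.5 to E16.5 none of the 4 passed, where 16.4% of genes did. The nearest was Gja4 at 0.28 ± 0.12 (SE, adjusted p = 0.114), with an interval of 2 SE either side from 0.04 to 0.52, and it passed with stricter gates, without a filter on low counts and without E16.5 replicate 2, while without E16.5 replicate 1 it was 0.0516 (adjusted p = 0.888). An unadjusted p under 0.05 was met by 1 of the 4, and DESeq2 called 0.

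The makeup of the endothelium changed over the same step. Endothelial cells with more UMIs of Npr3, a marker of endocardium, than of Fabp4, a marker of coronary vessels, numbered 546 and 678 at E12.5, then 258 and 166 at E14.5, then 184 and 154 at E16.5. Fabp4-led cells numbered 25 and 31, then 152 and 153, then 188 and 155. How far the stage differences come from this shift in makeup was not tested, but the levels within each arm are given next.

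At E14.5 and E16.5 most Gja5 UMIs of the endothelium lay in Fabp4-led cells. Of 105 and 95 UMIs at E14.5 it held 103 and 80 UMIs there and 0 and 3 in Npr3-led cells, or 27.1 and 25.1 against 0 and 1.4 CPM, and the rest lay in cells led by neither marker. Of 123 and 73 UMIs at E16.5 it held 118 and 73 against 4 and 0, or 29.6 and 26.5 against 1.52 and 0 CPM. At E12.5 it was near the floor in both, with 0 and 6 against 11 and 14 UMIs. Few endothelial cells of the later stages held a Gja5 UMI, 29 of 476 and 31 of 391 at E14.5 and 23 of 390 and 21 of 335 at E16.5. Most Fabp4-led cells therefore held none. The fitted log2 fold change of Npr3-led against Fabp4-led cells was -5.74 ± 0.54 (SE, adjusted p = 2.03e-08) at E14.5 and -5.09 ± 0.52 (SE, adjusted p = 8.94e-08) at E16.5. One Npr3-led sum of each of these stages held 0 UMIs, so these sizes depend on the prior count of the fit and are no bounds, and they were -10.06 without E14.5 replicate 2 and -9.94 without E16.5 replicate 1. At E12.5 the gene did not pass (-1.68, adjusted p = 0.185).

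Gja1 was also lower in Npr3-led cells. It stood at 20.8 and 19.9 CPM against 30.1 and 30.8 at E12.5, at 27.3 and 28.5 against 79.4 and 71.7 at E14.5 and at 29.2 and 15.6 against 62.7 and 70.1 at E16.5. The arms did not overlap at any stage. The log2 fold change was -0.70 ± 0.23 (SE, adjusted p = 0.0288) at E12.5, -1.59 ± 0.16 (SE, adjusted p = 9.35e-08) at E14.5 and -1.64 ± 0.18 (SE, adjusted p = 3.03e-07) at E16.5. Over all settings the E16.5 value ranged from -2.30 to -1.27. The E12.5 call was lost without either E12.5 library (adjusted p = 0.133 and 0.231 with the adjustment over all genes), with stricter gates (adjusted p = 0.0557) and with scaling by library totals (adjusted p = 0.0689).

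Gja4 was higher in Npr3-led cells at E12.5. There it stood at 136 and 136 CPM in Npr3-led and 25.9 and 29.9 in Fabp4-led cells, higher by 2.16 ± 0.27 (SE, adjusted p = 3.04e-06), 4.46-fold. At E14.5 it stood at 85.6 and 64 against 95.7 and 57.6 and at E16.5 at 100.1 and 77.3 against 121 and 87.1, with overlapping arms. The differences were -0.16 ± 0.20 (SE, adjusted p = 0.533) and -0.38 ± 0.19 (SE, adjusted p = 0.138), and that of E16.5 passed with the library as a block (-0.38, adjusted p = 0.0088) and with no filter on low counts (-0.39, adjusted p = 0.0153). The change of the difference from E12.5 to E16.5 was -2.53 ± 0.34 (SE, adjusted p = 8.12e-05). That of Gja1 was -0.94 ± 0.29 (SE, adjusted p = 0.0577) and that of Gja5 -3.40 ± 1.06 (SE, adjusted p = 0.0604), and both calls depended on the setting. Both passed with the library as a block (adjusted p = 0.0444 and 0.046), with no filter on low counts (adjusted p = 0.00682 and 0.00163) and without Scrublet doublets (adjusted p = 0.0307 and 0.0189). Gja1 also passed without E16.5 replicate 1 (-1.60, adjusted p = 0.0158), and Gja5 in DESeq2 (adjusted p = 0.0289) and without E12.5 replicate 2 (-9.93, adjusted p = 0.0227). With at least 2 UMIs of one marker and none of the other, the E12.5 differences were 3.46 for Gja4 and -1.07 for Gja1. Of all 10809 genes, 27%, 42.6% and 37.4% passed at E12.5, E14.5 and E16.5 and 6% passed for the change. For the change, 3 of 7 tested mural genes passed, all lower, with a median of -2.47 against -0.02 over all genes. Of 14 listed arterial genes 6 passed, all lower, with a median of -1.20. The part of mural RNA in the change of Gja4 was not tested.

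Averaged over the 3 stages, Npr3-led against Fabp4-led cells differed by -1.31 ± 0.12 (SE, adjusted p = 5.32e-09) for Gja1 and -4.17 ± 0.59 (SE, adjusted p = 3.52e-06) for Gja5. The difference was 0.54 ± 0.13 (SE, adjusted p = 0.00183) for Gja4 and 0.03 ± 0.11 (SE, adjusted p = 0.861) for Gjc1. That of Gja4 was 1.12 with at least 2 UMIs of one marker and none of the other. Of all genes, 55.6% passed this mean comparison. Without E12.5 replicate 2, where E12.5 replicate 1 holds 0 Gja5 UMIs in Fabp4-led cells, Gja5 did not pass (-1.99, adjusted p = 0.99). Fabp4-led cells of E12.5 were few and deep, with a median of 36660 and 31161 UMIs against 18417 and 18763. The comparisons at each stage and of their change were chosen after the levels had been seen.

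**Figure D5:**
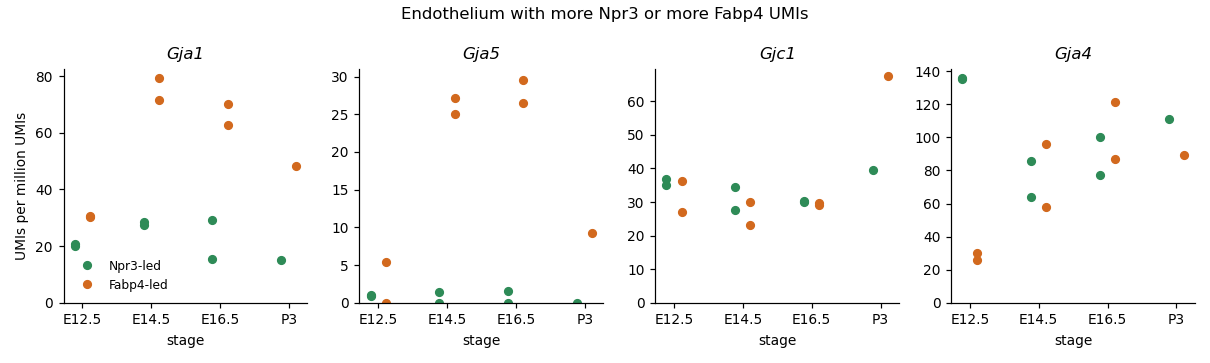
Levels of the 4 connexins (CPM, vertical axis) by stage in endothelial cells with more Npr3 or more Fabp4 UMIs. Each point is 1 library. Gja5 is at or below 1.52 in Npr3-led cells of E12.5 to E16.5 and 25.1 to 29.6 in Fabp4-led cells of E14.5 and E16.5, and Gja4 is separated between the arms at E12.5 but not at E14.5 or E16.5.

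Genes of arterial endothelium divided between the arms. Of 14 listed genes, 5 were higher and 7 lower in Npr3-led cells, with a median of -0.53 against 0.03 over all genes, of which 55.6% passed. Sox17, a factor of arterial and coronary endothelium, was lower by 4.93 ± 0.16 (SE, adjusted p = 1.71e-16), and stood at 73.1 and 56.4 CPM in Fabp4-led and 2.12 and 3.27 in Npr3-led cells at E14.5. The netrin receptor Unc5b was lower by 3.605 ± 0.17 (SE, adjusted p = 9.36e-14) and the chemokine receptor Cxcr4 by 3.31 ± 0.48 (SE, adjusted p = 4.96e-06). The kinase Bmx was higher by 3.17 ± 0.15 (SE, adjusted p = 6.85e-14). In all endothelium from E12.5 to E14.5, 8 of the 14 rose and 2 fell, with a median of 0.56 against 0 over all genes, of which 32.4% passed.

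In the endothelium of the earlier embryos the members were more even. At E8.5 Gja4 stood at 45.2 CPM, Gjc1 at 43.6, Gja1 at 30.6 and Gja5 at 15.1. At E10.5 the levels were 65.9 and 71.5, then 52.8 and 49.7, then 55.4 and 53.9, then 24.9 and 30.03 CPM in the same order of genes. Gja5 was thus higher at E10.5 than in the whole endothelium of any library of E12.5 to E16.5. In the 133 and 144 Npr3-led cells of E10.5, Gja5 stood at 56.1 and 61.7 and Gja4 at 135 and 123 CPM. That endothelium comes from trunks as well as hearts, and the vessels it was taken from are not given.

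In mesenchyme of the hearts Gjc1 led, with Gja1 next. Gjc1 stood at 63.5 and 62 CPM at E12.5, then 62.2 and 61.7 at E14.5, then 49.9 and 50.2 at E16.5. Gja1 stood at 27.6 and 27.6, then 30.6 and 30.1, then 20.6 and 22.8 CPM. Of these 3 stages, both genes had their lowest values at E16.5. From E12.5 to E14.5 none of the 4 members passed, where 18.3% of genes did. Gjc1 differed by -0.06 ± 0.09 (SE, adjusted p = 0.713), with an interval of 2 SE either side from -0.23 to 0.12. An unadjusted p under 0.05 was met by 0 of the 4, and DESeq2 called 0.

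From E14.5 to E16.5, where 23.6% of genes passed, 1 member passed in mesenchyme. This was Gja5 at -2.09 ± 0.69 (SE, adjusted p = 0.0301), on 13 and 4 UMIs at E14.5 against 1 and 4 at E16.5, and the call was lost without E14.5 replicate 1 (-1.25, adjusted p = 0.453), without E16.5 replicate 1 (-1.12, adjusted p = 0.372) and under 3 other settings, while without E16.5 replicate 2 the value was -3.59. RNA from outside the cell, judged by Myl2, would bring 0.319 and 0.23 CPM of it at E14.5, where 2.11 and 0.884 were measured, then 0.308 and 0.254 CPM at E16.5, where 0.106 and 0.647 were measured. Gja1 lay at the threshold, at -0.30 ± 0.11 (SE, adjusted p = 0.0505). Gjc1 did not pass, at -0.11 ± 0.09 (SE, adjusted p = 0.376), although its CPM did not overlap between the stages. With scaling by library totals, which moved the median of all genes by -0.19, Gja1 and Gjc1 both passed, at -0.49 (adjusted p = 0.0024) and -0.31 (adjusted p = 0.0122), so 3 members passed in place of 1. With stricter gates they were -0.13 (adjusted p = 0.742) and -0.0017 (adjusted p = 1). Gja4 stood at 1.06 to 3.59 CPM and passed at neither step. In the mesenchyme of E8.5 and E10.5, from 29, 82 and 72 cells, Gja1 stood at 40.6, then 80.7 and 83.4 CPM, Gjc1 at 47.7, then 53.1 and 68.8, and Gja5 and Gja4 held 0 UMIs.

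RNA from outside the cell was estimated from barcodes of at most 100 UMIs. In the hearts of E12.5 to E16.5 these held Gja1 at 34.3 to 111 CPM, Gjc1 at 19.6 to 31.2, Gja5 at 9.09 to 14.49 and Gja4 at 6.09 to 16. Myl2 in endothelium and mesenchyme was 2.26 to 4.49% of its level in those barcodes. If all of that Myl2 came from outside, Gja1 from outside would be at most 3.19 CPM, of 20.6 to 52.4 CPM measured in the 2 classes.

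At P3 the 2 pooled samples could not be matched to their labels, and their barcodes differ by a suffix, 1 or 2. The levels differed between the suffixes. In ventricular-like cells Gja1 stood at 174 CPM with suffix 1 and 476 with suffix 2, and Gjc1 at 19.96 and 38.7. In endothelium Gja1 stood at 17.6 and 72.9 CPM and Gja5 at 2.42 and 14.2. In atrial-like cells Gja1 stood at 228 and 384, and Gja5 at 119.9 and 193. The median mitochondrial share of ventricular-like cells was 23.2% and 23.3%, and the median UMIs were 19191 and 10135. The E16.5 values of Gja1 in ventricular-like cells, 240.4 and 249 CPM, lie between the suffixes, so no direction from E16.5 to P3 can be given for it.

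Some features of P3 were shared by both suffixes. Gja5 in ventricular-like cells stood at 4.76 and 7.54 CPM, below all values of E12.5 to E16.5. Gja5 and Gja1 in atrial-like cells were above all earlier values in both. In endothelium Gjc1 stood at 54.1 and 74.6 CPM, above the 29 to 38 of earlier hearts, and Gja4 at 96 and 88.3. Mural-like barcodes of P3, described below, held Gjc1 at 532 CPM over both suffixes. The part of mural RNA or of doublets in the endothelial level was not tested. In mesenchyme Gjc1 stood at 49.4 and 64.1. The splits by Nppa and by Tbx3 were made only over both suffixes together, so whether they hold in each suffix was not tested. In these pooled splits Gja5 stood at 8.64 CPM in Nppa-high and 3.71 in Nppa-low cells. The 65 Tbx3-positive cells had Gja1 at 58.5 and Gjc1 at 50.6 CPM, against 264 and 25.6 in Tbx3-zero cells. These are descriptions with no test.

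The other connexins were scarce. Of 19 other connexin and pannexin genes, 16 stayed at or below 2.32 CPM in every sum of the 4 classes from E12.5 on. Panx1 reached 28.3 CPM in mesenchyme of E14.5, and Panx2 stood at 14.9 and 18.3 CPM in atrial-like and 2.57 and 3.02 in ventricular-like cells of E14.5. Gja3 stood at 5.38 and 6.85 CPM in atrial-like and 4.11 and 4.9 in ventricular-like cells of E16.5. Gjb5 stood at 26.5 CPM in 29 mesenchymal cells of E8.5.

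Of the intercalated disc genes, 7, 7 and 9 of 14 differed between the chambers at E12.5, E14.5 and E16.5, where 38.3%, 32.3% and 35.8% of all genes did. At E14.5, 3 were higher and 4 lower in atrial-like cells, with a median of -0.11 against 0.0047 over all genes. Dsc2 was higher by 1.13 ± 0.14 (SE, adjusted p = 7.45e-07) and Cdh2 lower by 0.84 ± 0.08 (SE, adjusted p = 1.61e-08), while Tjp1, which binds the tail of the Gja1 protein, did not pass (0.11, adjusted p = 0.51). Of the 13 factors, 9 differed at E14.5, against the same 32.3% of all genes, with Tbx5 higher by 2.65 ± 0.08 (SE, adjusted p = 7.43e-18) in atrial-like cells and Irx3 lower by 3.50 ± 0.36 (SE, adjusted p = 4.86e-08). In endothelium, 7 of 8 listed mural genes were tested and 7 passed from E12.5 to E14.5, 2 up and 5 down, where 32.4% of all genes passed, with a median of -0.74. Rgs5, a pericyte gene, fell by 3.70 ± 0.93 (SE, adjusted p = 0.00372), and the part of mural RNA in the endothelial levels was not tested.

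The genes most like each connexin were found over 37 sums of 4 classes in 10 matrices, by Pearson's r of log2(CPM + 10) among 7267 genes. These sums share libraries and cells of one kind, so r is a description only. Gja4 was matched most closely, by Gngt2 and Scarf1 (r = 0.99 each) and the endothelial receptor Tie1 (r = 0.989). Gja1 was most like Fig4 (r = 0.858), Ppip5k2 (0.851), Nrap (0.838), Fam134b (0.836) and Gas6 (0.804). Nrap, an actin-anchoring protein of cardiomyocyte junctions, stood at 35.5 and 39.4, then 73.7 and 74.8, then 101 and 104 CPM in ventricular-like cells from E12.5 to E16.5. Gja5 was most like Stat5b (r = 0.874), Usp24, Ryr3, Map2k5 and Kcnj3 (0.839). Kcnj3, a potassium channel subunit of atrial myocardium, stood at 37.6 and 35.8, then 59.1 and 49.4, then 79.2 and 78.5 CPM in atrial-like cells. Gjc1 was most like Spg21 (r = 0.862), Bambi (0.836), Ilkap, Kctd15 and Cox4i2 (0.822). Between members, r was 0.443 for Gja1 with Gja5 and -0.574 for Gja1 with Gjc1.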

How the data were processed

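Single-cell libraries of whole hearts or embryo trunks were made with droplets. The authors deposited gene by barcode matrices of UMI counts, with no normalization. Per the labels, reads were processed with Cell Ranger (2.1.1) against mm10, and Seurat (3.1.1) is named as well. The labels name trypsin and the study's methods collagenase for dissociation, and they name different versions of the chemistry. Of the 13 samples, E8.5 replicate 1 was not analysed here, E16.5 replicate 1 holds 2 sample records in 1 matrix, and the P3 matrix pools both P3 samples. Antisense genes overlap Gja5, and how strand was used in counting is not given in the sources used here.

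Counts were summed over the barcodes of each class in each library. The 4 members were described whatever their level. Differences were tested with edgeR (4.0.16; R 4.3.3; limma 3.58.1) by the quasi-likelihood test, with TMM scaling and the filterByExpr filter on low counts, over the 6 libraries from E12.5 to E16.5, or the 4 up to E14.5 for mixed cells. The fit of the chambers also held the 2 atrial-like sums of E10.5. P-values were adjusted by Benjamini and Hochberg over all genes tested, with a threshold of 0.05. Standard errors were taken from the F statistic. Poisson intervals and floors of 3 counts cover counting error only. Where groups of sums are said not to overlap, the share of all genes that separate so was not counted. E8.5 and P3 had 1 matrix each and entered no test, and E10.5 had too few ventricular-like cells for the planned comparison of chambers. The procedure was also run on simulated sums in which few genes changed. More genes passed in each real comparison, so that run does not measure the calls reported here.

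The genes named are the 4 members, the 5 genes most like each, and members of 5 lists (other connexins, intercalated disc, factors known to act on cardiac connexins, arterial endothelium, mural cells). The members and lists were chosen with earlier results of these data known. In the fits reported the libraries were not a block. The arms of a library come from the same hearts, so the block is a pairing by design, and the correlation of their deviations from the stage means was -0.0051 to 0.216. Alternatives were DESeq2 (1.42.0) size factors and its Wald test, no filter, the block, leaving out each library, a minimum of 4000 UMIs, the mitochondrial ceilings of the study, leaving out barcodes under 1% mitochondrial, stricter gates, other splits, and leaving out doublets marked by Scrublet (scanpy 1.11.5). The barcodes with the highest Scrublet scores were marked, at a share set beforehand of 0.8% per 1000 barcodes of a library. This gave 3.94 to 11.7% of barcodes a library from E10.5 to E16.5, which is no measured rate of doublets. Scrublet was not run on E8.5 and P3. Doublets were otherwise kept. The contrasts of mixed cells, of Npr3 and Fabp4 at each stage and of their change, the mural-like and epicardial-like barcodes, and scaling by library totals were chosen after values had been seen. Sums and levels were made in Python (3.11.15; numpy 2.4.6, scipy 1.17.1, pandas 2.3.3) and figures with matplotlib (3.10.9).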

Additional observations from a re-analysis of the deposited data

Results flagged for a closer look

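The difference between atrial-like and ventricular-like cardiomyocytes itself changed from E12.5 to E16.5, by an interaction term in edgeR's quasi-likelihood test, for 3 connexins. Gja1 had 1.37 ± 0.15 (SE, adjusted p = 3.81e-07), with all 4 atrial-like sums of these stages below all ventricular-like sums. Gja5 had 2.06 ± 0.13 (SE, adjusted p = 2.29e-11) and Gjc1 -0.58 ± 0.13 (SE, adjusted p = 0.00253). In endothelium the difference between Npr3-led and Fabp4-led cells changed for Gja4, by -2.53 ± 0.34 (SE, adjusted p = 8.12e-05). The Fabp4-led cells of E12.5 were few and deeper than the Npr3-led cells, and this comparison was chosen after the levels had been seen. At E12.5 the 2 Npr3-led sums were above both Fabp4-led sums, and at E16.5 the Npr3-led sum was the lower in each library, by -0.38 in the fit, which passed with the library as a block (adjusted p = 0.0088) and with no filter on low counts (adjusted p = 0.0153) and not in the fit reported (adjusted p = 0.138).

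Mural-like and epicardial-like barcodes held connexins above the level in globin-rich barcodes, which was 0 to 2.87 CPM from E12.5 on. Mural-like barcodes met no class gate and had at least 500 CPM of the pericyte gene Rgs5, some Pdgfrb and under 10% globin. They held Gjc1 at 343 and 404 CPM at E16.5 (85 and 65 cells) and 532 at P3 (372 cells). At E12.5 the level was 78.1 and 68.8 CPM in 31 and 26 cells. Gja4 stood at 60 and 73.6 CPM at E16.5 and 188 at P3 in the same barcodes. Epicardial-like barcodes had over 100 CPM of Upk3b. Cardiomyocytes and endothelium were kept out of them, but cells of the mesenchyme class were not. They held Gja1 at 67.3 and 85.3 CPM at E16.5 and 128 at P3, against 29.4 and 33.9 at E12.5 and 44.2 and 50.9 at E14.5. The P3 value rests on 22 cells. No test was made on these barcodes.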

How the results depend on the processing

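Of 86 tests of a connexin, 60 passed, in comparisons where 6% to 82.4% of all genes did. Under 21 settings, 1411 log2 fold changes were recomputed, of which 1355 kept their direction and their side of the threshold, 18 lost their call, 19 gained one and 19 changed sign. The count of calls in mesenchyme between stages, 1, was 2 with a minimum of 4000 UMIs, 3 with scaling by library totals, and 0 with the mitochondrial ceilings of the study, without Scrublet doublets and with stricter gates. It was 0 to 2 when each library was left out. The causes were not tested.

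Values that changed sign, none of them past the threshold except the last, were as follows. In endothelium from E14.5 to E16.5, Gjc1 was 0.0212 with stricter gates and -0.16 to 0.064 when each library was left out. In mesenchyme from E12.5 to E14.5, Gja1 was -0.11 with stricter gates, and Gja5 was 0.0187 with a minimum of 4000 UMIs, 0.0256 with scaling by library totals and -0.85 to 0.40 when each library was left out. From E14.5 to E16.5, Gja4 in mesenchyme was -0.78 to 0.14 when each library was left out. Gja4 by Nppa was -0.23 to 0.46 when each library was left out and -0.10 with a median split, and by Tbx3 it was 0.19 in DESeq2. For Npr3-led against Fabp4-led cells, Gjc1 was -0.0006 with stricter gates and -0.055 to 0.106 when each library was left out. Of the values of single stages, at E12.5 Gja5 was -2.54 to 4.85 and Gjc1 -0.15 to 0.33 when each library was left out. At E14.5 Gja4 was 0.20 with 2 UMIs of one marker and none of the other, and at E16.5 Gjc1 was 0.0428 with scaling by library totals. The change of Gjc1 with stage was -0.44 to 0.0497 when each library was left out. Gja1 in mixed against atrial-like cells was 0.52 with stricter gates (adjusted p = 0.000916), which can move cells near the chamber cuts into the mixed class.

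With the library as replicate block, 3 calls changed, all in the comparison of Npr3-led and Fabp4-led cells. They were Gja4 at E16.5 (-0.38, adjusted p = 0.0088) and the change with stage of Gja1 (-0.94, adjusted p = 0.0444) and Gja5 (-3.42, adjusted p = 0.046). The block changed no other call. Stage contrasts lie between libraries and could not take the block. Chamber tests at E10.5 were not run, with 9 and 5 ventricular-like cells. Low counts limit Gja5 in Npr3-led, Tbx3-positive and mesenchymal sums and Gja4 in cardiomyocytes. With 2 libraries a stage, each p-value rests on a spread shared over stages.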
